A study of Mus musculus with 2 samples.

Results

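Levels of 8 genes of the interleukin-6 cytokine family were described in single cells from the inflamed central nervous system of the mouse: the ligand genes Il6, Osm (oncostatin M), Lif (leukaemia inhibitory factor), Il27 and Ebi3, and the receptor genes Il6ra, Il6st and Il27ra. They were taken by symbol, and all 8 were found among the 32285 genes of both count matrices. The cells came from experimental autoimmune encephalomyelitis (EAE), a model of multiple sclerosis in which C57BL/6 mice were immunized with MOG peptide in complete Freund's adjuvant and given pertussis toxin. On day 15, CNS mononuclear cells were pooled within each genotype and sorted for MHC class II and CD11c, and 1 10x Genomics 3' library was made for each genotype, WT and Stat4fl/flCD11cCre. The series asks how STAT4, a transcription factor activated by IL-12 and IL-23, acts in dendritic cells in EAE. In the second genotype loxP-flanked Stat4 is deleted by Cre under the CD11c promoter, which is active in dendritic cells and also in other myeloid and some lymphoid cells. The sources used here do not give the number, age or sex of the mice, nor which part of Stat4 is deleted. With 1 pooled library per genotype there is no replicate error, so no p-value is given, and a difference between the genotypes cannot be told apart from a difference between these libraries.

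Cytokines of this family signal through gp130, the product of Il6st, which pairs with a second chain and activates JAK kinases and STAT3. IL-6 binds its receptor Il6ra on the membrane or in shed form before it recruits gp130, oncostatin M and LIF act through gp130 paired with OSMR or LIFR, and IL-27, a dimer of the Il27 and Ebi3 products, acts through Il27ra and gp130. In EAE, IL-6 is known for driving TH17 cells and IL-27 for restraining them, and gp130 cytokines also act on glia.

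Upstream sequence from RefSeq (GRCm38.p6) was found for 5 of the 8 genes, and these 250-base windows are shown, each ending at the base before the transcription start and written in the direction of transcription. They belong to the cytokine genes with a motif match and to the chains of the IL-6 receptor, whose levels in microglia are described further on. Capitals mark matches to 2 of the 3 motifs searched on both strands: TGANTCA, the letters of an AP-1 site, and the κB consensus, a degenerate pattern bound by NF-κB. The third, TTCNNNGAA, the letters of a STAT dimer site, was in none of the 5 windows and in 7.02% of 32851 windows of the same length. TGANTCA was in 6.75% of these windows and the κB consensus in 7.25%. Il6 held TGANTCA from 249 bases and the κB consensus from 44 bases before its start, Lif held TGANTCA from 228 bases and the κB consensus from 178 bases before its start, and Ebi3 held the κB consensus from 44 bases before its start, with no overlap between matches. These are matches of letters, not sites shown to be bound. The windows lie at chr5:30012864-30013113 (plus strand) for Il6, chr11:4257318-4257567 (plus) for Lif, chr17:55952373-55952622 (plus) for Ebi3, chr3:89913197-89913446 (minus) for Il6ra and chr13:112463820-112464069 (plus) for Il6st.
Il6: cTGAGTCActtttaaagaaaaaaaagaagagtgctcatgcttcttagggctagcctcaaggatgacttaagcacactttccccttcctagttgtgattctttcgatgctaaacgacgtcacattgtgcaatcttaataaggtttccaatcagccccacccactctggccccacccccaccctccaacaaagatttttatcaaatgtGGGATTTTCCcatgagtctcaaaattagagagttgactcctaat
Lif: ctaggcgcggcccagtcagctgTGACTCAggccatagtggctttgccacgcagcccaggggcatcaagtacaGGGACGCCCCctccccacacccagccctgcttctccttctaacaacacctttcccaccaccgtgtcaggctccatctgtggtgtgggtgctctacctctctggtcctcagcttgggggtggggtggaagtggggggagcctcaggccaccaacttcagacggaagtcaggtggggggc
Ebi3: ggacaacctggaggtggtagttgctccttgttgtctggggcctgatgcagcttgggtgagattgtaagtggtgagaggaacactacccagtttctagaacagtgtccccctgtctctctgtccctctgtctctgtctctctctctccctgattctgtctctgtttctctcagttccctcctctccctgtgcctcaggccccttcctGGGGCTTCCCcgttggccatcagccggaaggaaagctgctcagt
Il6ra: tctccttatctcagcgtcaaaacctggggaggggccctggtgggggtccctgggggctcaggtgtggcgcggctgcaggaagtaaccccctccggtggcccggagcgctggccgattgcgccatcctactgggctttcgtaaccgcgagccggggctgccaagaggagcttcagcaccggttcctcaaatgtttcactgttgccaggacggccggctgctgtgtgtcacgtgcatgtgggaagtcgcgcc
Il6st: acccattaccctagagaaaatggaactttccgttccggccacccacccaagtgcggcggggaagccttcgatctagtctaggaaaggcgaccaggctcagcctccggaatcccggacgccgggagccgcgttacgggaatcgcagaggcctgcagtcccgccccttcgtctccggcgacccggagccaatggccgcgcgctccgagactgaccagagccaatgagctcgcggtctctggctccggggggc

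All 8 are protein-coding genes of GENCODE's GRCm38 annotation. Il6 spans chr5:30013114-30019981, Il6ra chr3:89864059-89913196, Il6st chr13:112464070-112510086, Il27 chr7:126589010-126594941, Ebi3 chr17:55952640-55957022 and Il27ra chr8:84030294-84042589. Osm (chr11:4236420-4241026) and Lif (chr11:4257557-4272514) are neighbours on the same strand, 16530 bases apart.

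The cells used had at least 500 genes, at least 1000 gene UMIs and less than 10% of UMIs from mitochondrial genes. There were 13298 in WT and 12305 in Stat4fl/flCD11cCre, with a median of 6440.5 and 6878 UMIs, and 42 of their barcodes occurred in both libraries. Cells were assigned to 13 types by UMIs of marker genes, and 8693 (65.4%) and 8932 (72.6%) cells met exactly 1 definition. Cells that met several, 26.7% in WT and 21.1% in Stat4fl/flCD11cCre with 51.4% and 42.6% of all UMIs, were left out as possible doublets. Before this count, cells that met the macrophage definition were taken out of the monocytes, and T cells out of the NK cells. Plasmacytoid and Ccr7+ DCs were taken out of the conventional DCs. The 9 types compared held at least 50 cells in both libraries: 3158 and 4933 microglia, 1186 and 955 monocytes, 940 and 660 macrophages, 230 and 186 conventional DCs, 114 and 152 plasmacytoid DCs, 333 and 614 neutrophils, 2204 and 1040 T cells, 333 and 251 NK cells, and 123 and 76 choroid plexus cells in WT and Stat4fl/flCD11cCre. Conventional and plasmacytoid DCs were thus a small share of the sorted cells. A UMI of H2-Aa, an MHC class II gene, was found in 96.5% and 95.7% of conventional DCs, in 13.4% and 8.75% of T cells, and in 75.0% of WT but 21.4% of Stat4fl/flCD11cCre microglia. The macrophage definition thus admits cells with monocyte markers, which summed to 3846 and 3588 UMIs per 1000000 gene UMIs, or CPM, in macrophages. Macrophages and monocytes are therefore not cleanly separated by these definitions. Stat4 itself was at 65.7 CPM in WT and 66.9 CPM in Stat4fl/flCD11cCre conventional DCs, and at 254 and 233 CPM in T cells. The 3' reads may lie outside the deleted part, so this does not check the label, and directions below rest on the library labelled Stat4fl/flCD11cCre.

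Values are CPM within a cell type and library. They are not scaled to gene length, so levels are compared between cell types and not between genes. Brackets hold exact 95% Poisson intervals for CPM and exact conditional binomial intervals for ratios, which cover counting error only. A ratio is Stat4fl/flCD11cCre over WT. It was computed for genes with 50 or more UMIs in a cell type over both libraries, called measured here, and a fold of 1.5 or more is the size used to call a gene higher or lower. The plot of levels by cell type shows the 8 genes side by side.

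**Figure D1:**
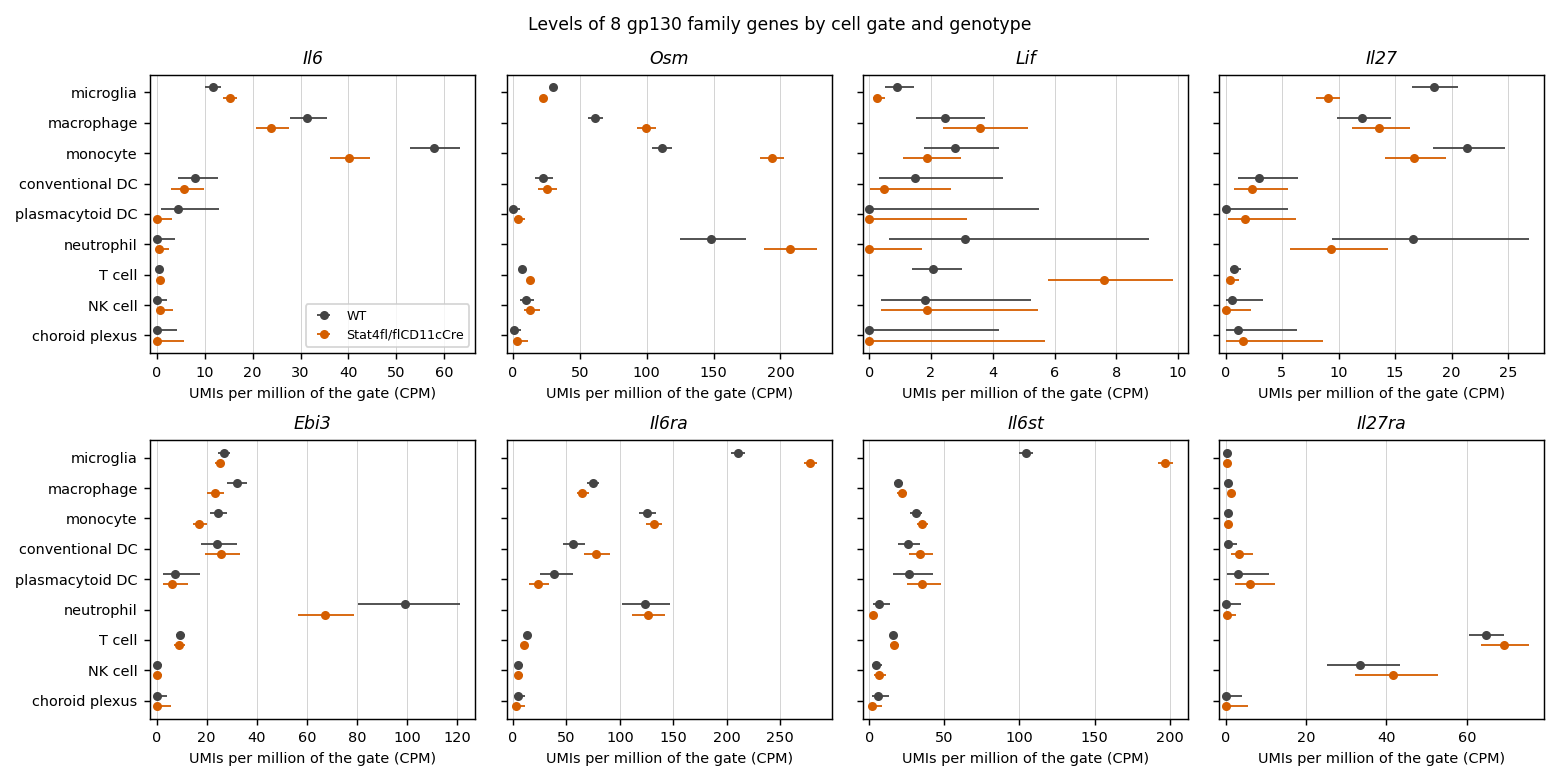
CPM of the 8 genes (x axis, linear, a scale of its own in each panel) in 9 cell types (y axis) of the WT (grey) and Stat4fl/flCD11cCre (orange) libraries, with exact 95% Poisson intervals. Il6 is highest in monocytes, Osm in neutrophils and monocytes, Il6ra and Il6st in microglia and Il27ra in T cells in both libraries.

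Il6 encodes the founding cytokine of the family, and among cells of 1 type it was found in monocytes, macrophages and microglia. Cells that met several definitions, not described further, held 57.0% and 49.7% of all Il6 UMIs. They also held 61.0% and 53.1% of Osm, 57.5% and 40.7% of Il6ra and 54.3% and 37.0% of Il6st UMIs. For Il27 this was 56.7% and 46.5%, for Ebi3 56.9% and 46.7%, for Lif 54.2% and 38.8% and for Il27ra 29.9% and 28.2%. Levels by cell type leave these cells out for all 8 genes. For Il6, WT monocytes stood at 57.9 CPM (52.8 to 63.3) and Stat4fl/flCD11cCre monocytes at 40.2 CPM (36.2 to 44.5). In macrophages it was 31.4 and 23.9 CPM, and in microglia 11.7 and 15.2 CPM. Conventional DCs, at 7.90 and 5.70 CPM, were below all of these, although the upper bound of 12.8 CPM in WT DCs overlaps the interval of WT microglia (10.2 to 13.4). Lymphocytes and neutrophils held almost none. T cells had 7 and 5 UMIs (0.517 and 0.656 CPM), neutrophils 0 UMIs in WT, which allows up to 3.10 CPM, and 1 UMI in Stat4fl/flCD11cCre, and choroid plexus cells had 0 UMIs in both libraries, which allows up to 3.41 and 4.64 CPM.

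Il6 was detected in a small share of cells, a share that depth also sets. With every cell thinned to 2500 UMIs, 9.02% of 1086 WT monocytes (7.39 to 10.9) and 5.86% of 938 Stat4fl/flCD11cCre monocytes (4.45 to 7.56) held an Il6 UMI, against 2.92% and 3.48% of microglia and 0.0969% and 0.0987% of T cells. Without thinning these shares were 13.7% and 11.7% of monocytes and 0.227% and 0.481% of T cells. T cells, which should hold little Il6, serve here as a comparison. Whether their few Il6 UMIs came from free RNA was not tested. The median T cell had 4950 and 5838.5 UMIs, and the median monocyte 6688 and 9092. The 1% of cells with the most Il6 UMIs held 26.8% and 38.1% of all Il6 UMIs of monocytes 33.1% and 56.7% of those of macrophages and 37.0% and 34.5% of those of microglia. Microglia with an Il6 UMI held 1.28 and 1.35 on average, so most had a single one. A single Stat4fl/flCD11cCre macrophage held 37 of the 194 Il6 UMIs of its cell type. UMIs of Il6 and Osm were found together in some monocytes and macrophages. Of thinned monocytes with an Il6 UMI, 37.8% in WT and 50.9% in Stat4fl/flCD11cCre also held an Osm UMI, against 14.2% and 22.5% of the other monocytes. In macrophages these shares were 24.4% and 70.6%, from 45 and 17 cells with an Il6 UMI, against 9.75% and 13.7%. In microglia they were 7.23% and 3.66% against 4.75% and 3.08%.

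No Il6 ratio reached 1.5-fold, and the sign differed between cell types. The log2 ratio was -0.53 (-0.73 to -0.33) in monocytes, -0.39 (-0.67 to -0.12) in macrophages and 0.38 (0.14 to 0.62) in microglia. The macrophage value depended most on how cells were chosen: it was -1.23 when each definition needed 1 marker more and -0.01 when cells of several types were kept. The microglia value was -0.02 with cell clusters in place of markers.

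Osm encodes oncostatin M, a product of activated myeloid cells that acts on astrocytes, endothelium and stroma. Neutrophils had the highest level, 148 CPM (125 to 174) in WT and, in Stat4fl/flCD11cCre, 207 CPM (188 to 227). Monocytes followed with 111 CPM (104 to 119) and 193 CPM (184 to 203), and macrophages with 61.6 CPM (56.5 to 67.1) and 99.6 CPM (92.9 to 107). The order neutrophil, monocyte, macrophage was the same in both libraries, although in Stat4fl/flCD11cCre the intervals of neutrophils and monocytes overlapped. Microglia, at 30.0 and 22.3 CPM, and conventional DCs, at 22.2 and 25.2 CPM, came next. NK cells had 9.54 and 13.1 CPM and T cells 6.50 and 12.7 CPM, while choroid plexus cells had 1 and 2 UMIs (1.14 and 3.09 CPM).

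Osm was higher in Stat4fl/flCD11cCre monocytes, macrophages and T cells. The log2 ratio in monocytes was 0.80 (0.68 to 0.91), a 1.74-fold difference, from 918 and 1766 UMIs. In macrophages it was 0.69 (0.53 to 0.85), 1.62-fold, from 527 and 807 UMIs. An Osm UMI was held by 16.3% (14.1 to 18.6) of thinned WT monocytes and 24.2% (21.5 to 27.1) of Stat4fl/flCD11cCre monocytes, and 10.5% and 15.1% in macrophages. Of all measured genes, 2.84% were higher by 1.5-fold or more in monocytes and 1.67% in macrophages. Osm was the 1 called gene of 6 measured members in monocytes and of 7 in macrophages. In neutrophils the log2 ratio was 0.48 (0.21 to 0.77), below the size used. The median measured gene of neutrophils had a log2 ratio of -0.11, and relative to it Osm was at 0.59, past 1.5-fold.

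Ratios in T cells rest on far fewer UMIs. Osm had 88 UMIs in WT and 97 in Stat4fl/flCD11cCre T cells, a log2 ratio of 0.97 (0.54 to 1.40), or 1.96-fold. Genes of other marker lists were present there too. The 4 monocyte markers summed to 510 and 285 CPM and the 8 neutrophil markers to 82.5 and 117 CPM in T cells. The monocyte list holds Ly6c2, the only gene behind its 2553 and 1999 CPM in plasmacytoid DCs. In T cells 0 of its 4 genes were at 0 in either library, and the part of Ly6c2 in the sum there was not tested. The part of RNA from other cells in the Osm level was not tested. In microglia the log2 ratio was -0.43 (-0.59 to -0.26), opposite in sign to the cell types above, and 0.10 with cells of several types kept. It is taken up with MHC class II below.

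**Figure D2:**
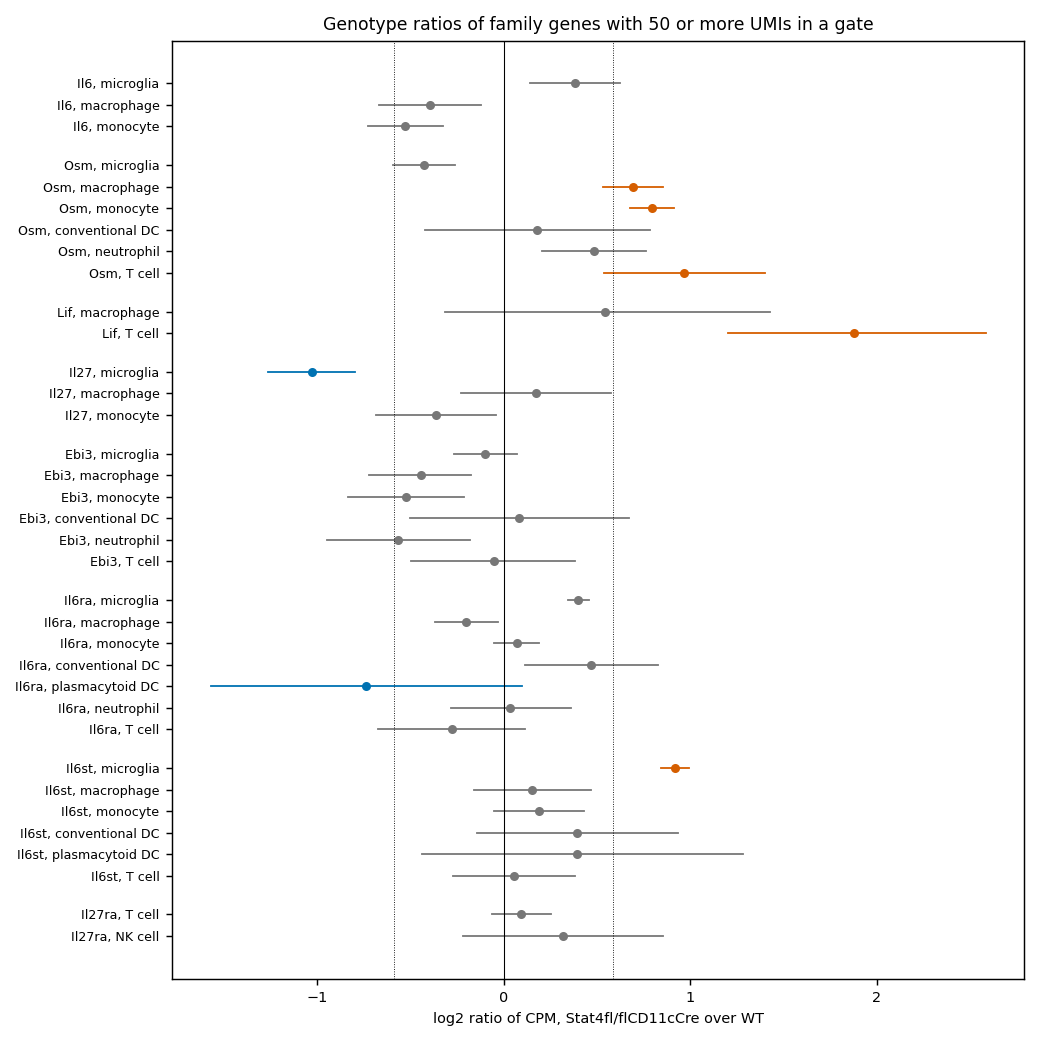
Log2 ratio of CPM, Stat4fl/flCD11cCre over WT (x axis), for each family gene with 50 or more UMIs in a cell type (y axis), with exact 95% intervals. Dotted lines mark 1.5-fold, orange points are higher and blue points lower by that size, and the 7 coloured points are Osm in 3 cell types, Lif in T cells, Il6st and Il27 in microglia and Il6ra in plasmacytoid DCs.

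Lif, the neighbour of Osm, encodes a cytokine made by activated T cells and by stroma, and it was sparse in every cell type. T cells had 28 UMIs in WT, 2.07 CPM (1.37 to 2.99), and 58 UMIs in Stat4fl/flCD11cCre, 7.60 CPM (5.77 to 9.83). The intervals did not overlap, and the log2 ratio was 1.88 (1.21 to 2.58), a 3.68-fold difference. It was 1.196 with cells of several types kept. These UMIs lay in 20 of 2204 and 32 of 1040 T cells. In thinned cells the shares were 0.339% (0.136 to 0.697) and 1.09% (0.543 to 1.93), whose intervals overlap. Macrophages had 2.45 and 3.58 CPM and monocytes 2.79 and 1.86 CPM, within counting error of each other. Microglia held 16 and 8 UMIs. Plasmacytoid DCs and choroid plexus cells held none, which allows up to 4.46 and 2.58 CPM and up to 3.41 and 4.64 CPM.

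Within T cells, Lif UMIs lay mainly in CD4 cells. CD4 T cells without a Foxp3 UMI held 14 UMIs in WT, 2.49 CPM (1.36 to 4.17), and 39 in Stat4fl/flCD11cCre, 10.8 CPM (7.66 to 14.7). Their log2 ratio was 2.11 (1.202 to 3.11), and 0.92 with cells of several types kept. Foxp3+ T cells, the regulatory lineage, had 6.45 CPM (3.09 to 11.9) and 12.7 CPM (6.55 to 22.1), from 10 and 12 UMIs, too few to be measured. CD8 T cells had 0 Lif UMIs in 540 and 193 cells, which allows up to 0.930 and 2.22 CPM. T cells with a UMI of Il17a, the TH17 cytokine, held 3 Lif UMIs in 105 WT cells and 18 in 116 Stat4fl/flCD11cCre cells. Without them the Lif level of T cells was 1.97 and 6.13 CPM, a log2 ratio of 1.64 (0.88 to 2.42). In these cells Lif and Osm were called higher, the latter at 1.08, beside 2.42% of all measured genes higher and 2.99% lower.

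In T cells as a whole, Osm and Lif were the 2 called genes of 6 measured members, both higher, where 2.6% of all measured genes were higher by that size. In CD4 T cells without Foxp3, Lif was the 1 gene called higher, with 2.2% of all measured genes, and Osm there had a log2 ratio of 0.53 (-0.13 to 1.19). Foxp3+ T cells had 11 and 19 Osm UMIs, 7.09 and 20.1 CPM, too few to be measured. The plot of T cell subsets shows these levels beside Ebi3 and Il27ra.

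**Figure D3:**
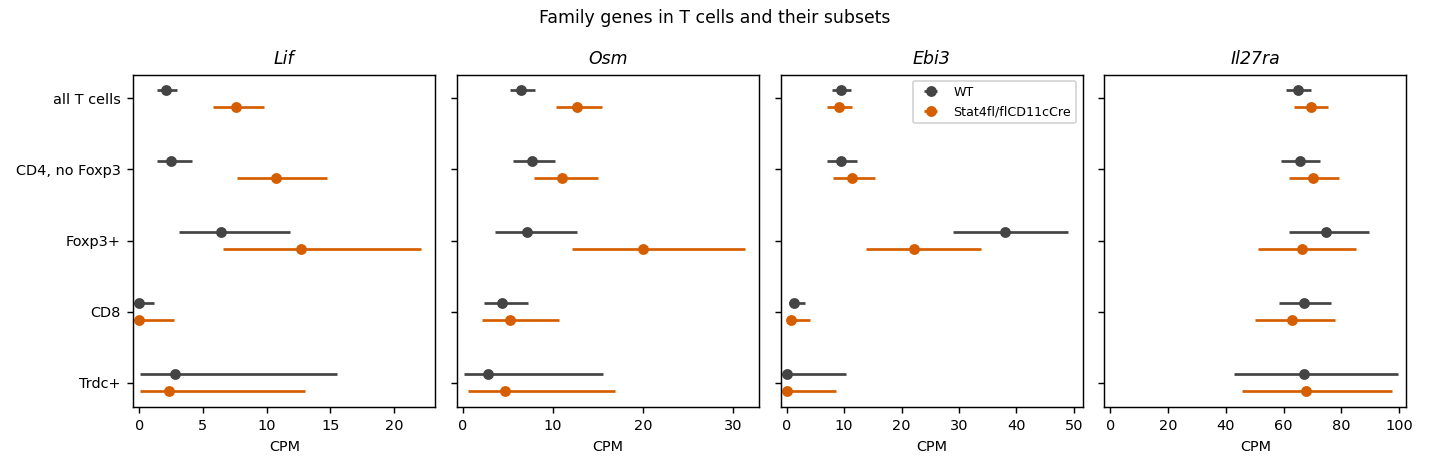
CPM (x axis) of Lif, Osm, Ebi3 and Il27ra in all T cells and 4 subsets (y axis), WT in grey and Stat4fl/flCD11cCre in orange, with exact 95% Poisson intervals. Lif is at 0 in CD8 T cells, Ebi3 is highest in Foxp3+ T cells, and Il27ra lies between 62.8 and 74.8 CPM in every subset.

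Il27 encodes the p28 chain of IL-27, and among cells of 1 type it was highest in monocytes, microglia, macrophages and neutrophils. In WT it stood at 21.4 CPM (18.3 to 24.8) in monocytes, 18.4 CPM (16.5 to 20.5) in microglia, 16.6 CPM (9.46 to 26.9) in neutrophils and 12.04 CPM (9.83 to 14.6) in macrophages. The first 3 did not differ beyond counting error. Stat4fl/flCD11cCre microglia had 9.03 CPM (7.9999 to 10.2), below monocytes at 16.6 CPM (14.1 to 19.5) and macrophages at 13.6 CPM (11.2 to 16.4) and level with neutrophils at 9.32 CPM (5.69 to 14.4). Conventional DCs had 2.96 and 2.37 CPM from 6 and 5 UMIs, and T cells 0.738 and 0.393 CPM.

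Il27 was lower by 2.04-fold in Stat4fl/flCD11cCre microglia, a log2 ratio of -1.03 (-1.27 to -0.79) from 328 and 278 UMIs. Of thinned WT microglia 3.91% (3.23 to 4.69) held an Il27 UMI, and of Stat4fl/flCD11cCre microglia 1.91% (1.54 to 2.34), against 0.291% and 0.197% of T cells. The ratio was -0.36 (-0.68 to -0.04) in monocytes and 0.17 (-0.23 to 0.58) in macrophages. Il27 was the 1 gene called lower of 6 measured members in microglia, where 11% of all measured genes were lower by that size, so the count of members is near the background.

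Ebi3 encodes the partner chain of Il27 and was distributed otherwise. Neutrophils had the highest level, 99.3 CPM (80.4 to 121) in WT and, in Stat4fl/flCD11cCre, 67.1 CPM (56.6 to 79.0). Macrophages (31.9 and 23.5 CPM), microglia (26.9 and 25.1 CPM), monocytes (24.5 and 17.1 CPM) and conventional DCs (24.2 and 25.6 CPM) lay close together. NK cells held 0 Ebi3 UMIs in both libraries, which allows up to 1.79 and 1.87 CPM. Among T cells, Foxp3+ cells stood at 38.0 CPM (29.0 to 49.1) and 22.2 CPM (13.7 to 33.9), above CD4 T cells without Foxp3 (9.41 and 11.3 CPM) and CD8 T cells (1.24 and 0.739 CPM). Regulatory T cells are known to make Ebi3 as a chain of IL-35.

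No cell type of the 9 had an Ebi3 ratio past 1.5-fold. The log2 ratio was -0.57 (-0.95 to -0.18) in neutrophils, -0.52 (-0.83 to -0.21) in monocytes, -0.44 (-0.72 to -0.17) in macrophages and -0.10 (-0.26 to 0.07) in microglia. Relative to the median of all neutrophil genes the first of these was -0.46. In Foxp3+ T cells Ebi3 was called lower, -0.78 (-1.57 to -0.04) from 59 and 21 UMIs, the 1 called gene of 4 measured members where 5.32% of all measured genes were lower and 3.38% higher. It was -0.05 when cells of several types were kept and -0.14 with cell clusters in place of markers.

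Both chains of IL-27 were seldom found in the same cell at this depth. Among thinned microglia, 7 of 2838 in WT and 7 of 4711 in Stat4fl/flCD11cCre held a UMI of both, or 0.247% (0.0992 to 0.508) and 0.149% (0.0598 to 0.306). Of microglia with an Il27 UMI, 6.31% and 7.78% also had one of Ebi3, close to the 6.197% and 6.15% of those without. Macrophages had 3 and 3 such cells and monocytes 3 and 2. Joint detection in thinned cells at these low levels is limited by depth.

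Il6ra encodes the IL-6 receptor chain, and its level was highest in microglia. WT microglia had 211 CPM (204 to 217) and Stat4fl/flCD11cCre microglia 278 CPM (272 to 284). Monocytes (126 and 132 CPM) and neutrophils (123 and 126 CPM) came next and did not differ from each other beyond counting error. They were followed by macrophages (74.6 and 64.9 CPM) and conventional DCs (56.3 and 77.9 CPM), whose order differed between the libraries and whose intervals overlapped in Stat4fl/flCD11cCre, and by plasmacytoid DCs (38.6 and 23.2 CPM). T cells stood at 12.8 and 10.6 CPM, NK cells at 4.77 and 4.97 CPM and choroid plexus cells at 4.55 and 3.09 CPM.

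Among T cells, Il6ra was highest in Foxp3+ cells, at 25.8 CPM (18.4 to 35.1) and 24.3 CPM (15.4 to 36.4). CD4 T cells without Foxp3 held 81 Il6ra UMIs in WT, 14.4 CPM (11.4 to 17.9), and 30 in Stat4fl/flCD11cCre, 8.28 CPM (5.59 to 11.8). Their log2 ratio was -0.80 (-1.45 to -0.18). It was the 1 member called lower there, with 4.22% of all measured genes, and it was 0.052 with cell clusters in place of markers. In plasmacytoid DCs Il6ra was called lower on 26 and 27 UMIs, -0.74 (-1.57 to 0.10), with an interval that holds a ratio of 1. It was the 1 called gene of 2 measured members, where 3.05% of all measured genes were lower and 6.82% higher, and it was 0.056 when cells of several types were kept. The better counted cell types stayed within 1.5-fold, with log2 ratios of 0.40 (0.35 to 0.46) in microglia, 0.07 (-0.05 to 0.19) in monocytes, 0.04 (-0.28 to 0.36) in neutrophils and 0.47 (0.12 to 0.83) in conventional DCs.

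Il6st encodes gp130, the chain shared by the family, and it too was highest in microglia. WT microglia had 104 CPM (99.5 to 109) and Stat4fl/flCD11cCre microglia 197 CPM (192 to 202). Every other of the 9 cell types stood at 35.3 CPM or less. Plasmacytoid DCs had 26.7 and 35.2 CPM, monocytes 30.9 and 35.3 CPM, conventional DCs 25.7 and 33.7 CPM and macrophages 19.4 and 21.6 CPM, with overlapping intervals among the first 3. Neutrophils, high in Il6ra, had 6 and 5 Il6st UMIs (6.21 and 2.33 CPM). Neutrophils are known to hold little cytoplasmic RNA, and their median was 2223 and 2864 UMIs a cell. CPM is scaled to the UMIs of the cell type, and the part of RNA content in the Il6st level was not tested. In T cells, Il6st was highest in Foxp3+ cells (47.7 and 46.5 CPM), followed by CD8 T cells (17.0 and 21.4 CPM) and CD4 T cells without Foxp3 (7.46 and 6.35 CPM).

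Il6st was the 1 gene called higher of 6 measured members in microglia, where 7.23% of all measured genes were higher by that size. As 1 of 6, the count of members is no result on its own. The log2 ratio was 0.92 (0.84 to 0.99), a 1.89-fold difference, and it lay between 0.81 and 1.05 over 9 other ways of processing. Microglia of the libraries lay mostly in different clusters: of 3 large microglia clusters, 1 held 1962 WT and 822 Stat4fl/flCD11cCre cells, and the others 407 and 2552, and 294 and 1032. The Il27 ratio rests on the same cells, and the part of these clusters in either ratio was not tested. The ratio was 0.15 (-0.16 to 0.47) in macrophages, 0.19 (-0.05 to 0.43) in monocytes, 0.39 (-0.14 to 0.94) in conventional DCs and 0.06 (-0.27 to 0.38) in T cells. Microglia with UMIs of both chains of the IL-6 receptor were more frequent in Stat4fl/flCD11cCre. In thinned cells they numbered 281 of 2838 (9.90%, 8.83 to 11.1) in WT and 881 of 4711 (18.7%, 17.6 to 19.8) in Stat4fl/flCD11cCre. With an H2-Aa UMI, the division used below, the shares were 9.43% (8.24 to 10.7) and 11.8% (9.89 to 13.9), whose intervals overlap, and without it 11.5% (9.13 to 14.2) and 20.6% (19.3 to 22.0). Among monocytes these shares were 2.21% and 2.45%, and among macrophages 0.654% and 0.306%.

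The microglia of the 2 libraries differed in MHC class II. H2-Aa was detected in 75.0% of WT and 21.4% of Stat4fl/flCD11cCre microglia, whose median cells had 4478 and 5068 UMIs. Microglia were therefore also described by the presence of an H2-Aa UMI, a division chosen after the data were seen. It was scored without thinning, so depth also sets it. The median cell had 4942 (WT) and 6849 (Stat4fl/flCD11cCre) UMIs with H2-Aa, and 3684.5 and 4818 without. The part of depth in the division was not tested. Il6st was higher in Stat4fl/flCD11cCre microglia without H2-Aa, 115 CPM (104 to 128) against 217 CPM (211 to 224), a log2 ratio of 0.92 (0.76 to 1.07), where 6.2% of all measured genes were higher. In microglia with H2-Aa it was 102 CPM (96.7 to 107) against 151 CPM (143 to 159), a log2 ratio of 0.57 (0.46 to 0.67), just under 1.5-fold, with 3.09% of all measured genes higher.

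Il27 was lower by 1.5-fold or more in both kinds of microglia, and Osm in neither. Il27 went from 19.1 to 11.8 CPM with H2-Aa, -0.70 (-1.03 to -0.37), and from 15.6 to 7.82 CPM without, -0.99 (-1.46 to -0.51), where 5.34% and 8.02% of all measured genes were lower. Osm was 33.7 and 44.4 CPM in microglia with H2-Aa, a log2 ratio of 0.40 (0.21 to 0.59), and 13.4 and 12.6 CPM without, -0.09 (-0.56 to 0.41). The part of the smaller share of H2-Aa cells in the Osm ratio of all microglia was not tested. Il6ra ratios were 0.17 (0.09 to 0.25) with and 0.29 (0.19 to 0.40) without H2-Aa.

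Marker lists of other cells in the microglia were low in both libraries. The monocyte list summed to 63.2 and 26.2 CPM, with 0 of its 4 genes at 0, the neutrophil list to 67.5 and 37.6 CPM and the Ccr7+ DC list to 68.9 and 161 CPM, beside 4164 and 6526 CPM for the 5 microglia markers. The part of these differences in the Il6st and Il27 ratios was not tested.

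**Figure D4:**
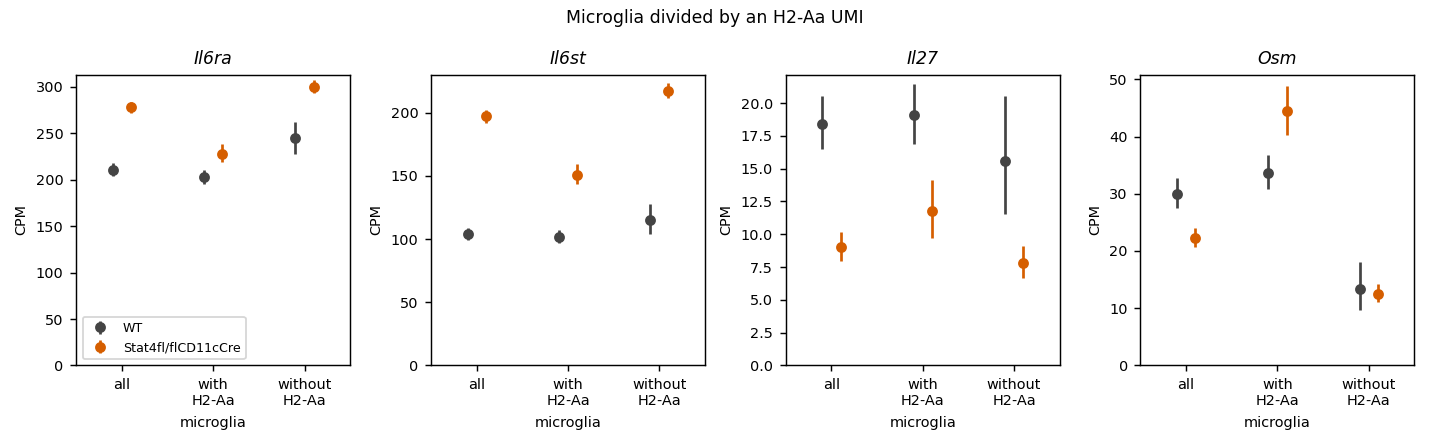
CPM (y axis, from 0) of Il6ra, Il6st, Il27 and Osm in all microglia and in microglia with or without an H2-Aa UMI (x axis), WT in grey and Stat4fl/flCD11cCre in orange, with exact 95% Poisson intervals. Il27 is lower by 1.5-fold or more in Stat4fl/flCD11cCre in each division and Il6st higher by that size in all microglia and those without H2-Aa, while Osm is 33.7 against 44.4 CPM with H2-Aa and 13.4 against 12.6 CPM without.

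Il27ra encodes the specific receptor chain of IL-27, and in these cells it was highest in T and NK cells. T cells had 64.9 CPM (60.7 to 69.3) in WT and, in Stat4fl/flCD11cCre, 69.4 CPM (63.6 to 75.5), and NK cells 33.4 CPM (25.2 to 43.4) and 41.7 CPM (32.3 to 52.9). T cells held 62.7% and 58.3% of all Il27ra UMIs with 11.1% and 6.37% of all gene UMIs. Microglia, macrophages, monocytes and neutrophils each had at most 1.36 CPM in either library. Plasmacytoid DCs had 2.97 and 6.01 CPM, from 2 and 7 UMIs, and conventional DCs 0.494 and 3.32 CPM, from 1 and 7 UMIs. The 60 and 39 B cells, too few to be compared, held 6 and 4 UMIs.

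Il27ra was even across T cell subsets and genotypes. In WT it was 74.8 CPM in Foxp3+ cells, 67.0 CPM in Trdc+ (γδ) cells, 66.9 CPM in CD8 T cells and 65.5 CPM in CD4 T cells without Foxp3, all within counting error of each other. The log2 ratio was 0.10 (-0.06 to 0.25) in all T cells, an interval that leaves out 1.5-fold, and 0.32 (-0.22 to 0.86) in NK cells, one that does not. Over all cells together Il27ra was at 11.5 CPM in WT and 7.58 CPM in Stat4fl/flCD11cCre, -0.60 (-0.72 to -0.48), where 8% of all measured genes were lower and 7.19% higher. T cells made up 16.6% and 8.45% of the cells of these libraries.

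Across the 9 cell types, 35 pairs of a member and a cell type were measured, and 7 differed by 1.5-fold or more. Osm in monocytes, macrophages and T cells, Lif in T cells and Il6st in microglia were higher. Il27 in microglia and Il6ra in plasmacytoid DCs were lower. Among all measured genes, 7.23% were higher and 11% lower in microglia, 2.84% and 4.85% in monocytes and 1.67% and 3.37% in macrophages. In T cells these shares were 2.6% and 3.08%, and in plasmacytoid DCs 6.82% and 3.05%. No share was pooled over the 9 types, so the count of 7 is no result on its own. In conventional DCs, the cells the study is about, 0 of 4 measured members passed, where 5.19% of all measured genes were higher and 3.43% lower. In neutrophils 0 of 3 passed, with 3.66% higher and 13.9% lower, and in NK cells 0 of 1, with 4.63% and 2.82%. Among the smaller T cell subsets 0 of 2 passed in CD8 T cells, with 4.83% higher and 3.71% lower, and 0 of 1 in Trdc+ T cells, with 7.96% and 7%.

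Other genes of the pathway were described from 4 lists: 6 ligands, 5 receptor chains, 8 kinases, STATs and shedding proteases, and 12 feedback and STAT3 response genes. Few further ligands were detected. Il12a, the p35 chain of IL-12 and IL-35, was measured in macrophages, where its 52 WT UMIs gave 6.08 CPM and its 83 Stat4fl/flCD11cCre UMIs 10.2 CPM, with a log2 ratio of 0.75 (0.24 to 1.28). It was the 1 measured ligand of the list there, with 1.67% of all measured genes higher. Of the receptor chains, Lifr, the LIF receptor, was higher in Stat4fl/flCD11cCre conventional DCs, 31.6 against 52.2 CPM, 0.73 (0.27 to 1.19). It was the 1 measured chain there, with 5.19% of all measured genes higher. In microglia Lifr was 103 and 128 CPM, 0.30 (0.22 to 0.39). There 0 of 3 measured receptor chains passed, beside 7.23% of all measured genes higher and 11% lower. Il12rb2, which pairs with Il12rb1 to bind IL-12, was lower in Stat4fl/flCD11cCre Foxp3+ T cells, 52.2 against 19.0 CPM, -1.46 (-2.28 to -0.71), and in CD4 T cells without Foxp3, 95.4 against 56.3 CPM, -0.76 (-0.9998 to -0.52). Of all measured genes, 5.32% and 4.22% were lower in these subsets. In all T cells Il12rb2 was at -0.48, short of 1.5-fold, and in CD8 T cells at 0.06.

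The response genes passed 1.5-fold most often in microglia. Of the 12, all measured there, 5 were lower and 1 higher in Stat4fl/flCD11cCre, beside 11% lower and 7.23% higher among all 12943 measured genes, with a median log2 ratio of -0.37 beside 0.09. Fewer passed when microglia were divided by H2-Aa. With H2-Aa 1 of 11 measured was lower (Cd274) and 0 higher, beside 5.34% lower and 3.09% higher among all measured genes. The median was -0.07 beside 0.04, and this count is no result on its own. Without H2-Aa 3 of 11 were lower (Socs1, Pim1 and Cd274) and 0 higher, beside 8.02% lower and 6.2% higher among all measured genes. The median was -0.21 beside 0.04. Bcl3 and Maf passed in neither kind, and Il10 had too few UMIs there to be measured. Socs1, a feedback inhibitor of JAKs, was 30.6 CPM in WT and 15.4 CPM in Stat4fl/flCD11cCre, and Pim1, a STAT-induced kinase, 126 and 54.0 CPM. Cd274, which encodes PD-L1, was 169 and 61.4 CPM, with Bcl3 and Il10 also lower. Maf, a transcription factor, was the 1 higher in all microglia, 431 and 738 CPM, 0.78 (0.74 to 0.81). Socs3, the feedback inhibitor that binds gp130, was 146 and 115 CPM, -0.34 (-0.41 to -0.26), short of 1.5-fold.

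Stat3, the main transcription factor of the family, was 203 CPM in WT and 177 CPM in Stat4fl/flCD11cCre microglia, -0.20 (-0.26 to -0.14). Many genes of these lists also answer to interferons, and which cytokine set their levels was not tested.

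Socs1 was lower in Stat4fl/flCD11cCre in the other myeloid types as well. It was 94.8 and 61.7 CPM in monocytes, 64.4 and 40.6 CPM in macrophages, 45.9 and 29.4 CPM in conventional DCs and 133 and 54.5 CPM in neutrophils. Of the 12 response genes, 2 were lower in monocytes (Socs1 and Cd274) with 4.85% of all measured genes, 1 in macrophages (Socs1) with 3.37%, 1 of 9 in conventional DCs (Socs1) with 3.43% and 3 of 9 in neutrophils (Socs1, Batf and Cd274) with 13.9%. In T cells Socs1 was 94.8 and 104 CPM, and 0 of the 12 were lower, with 3.08% of all measured genes. There Il10 was the 1 higher, 0.72 (0.04 to 1.39), from 41 and 38 UMIs, with 2.6% of all measured genes. In monocytes Jak2 was lower, 177 against 117 CPM, -0.59 (-0.71 to -0.48).

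**Figure D5:**
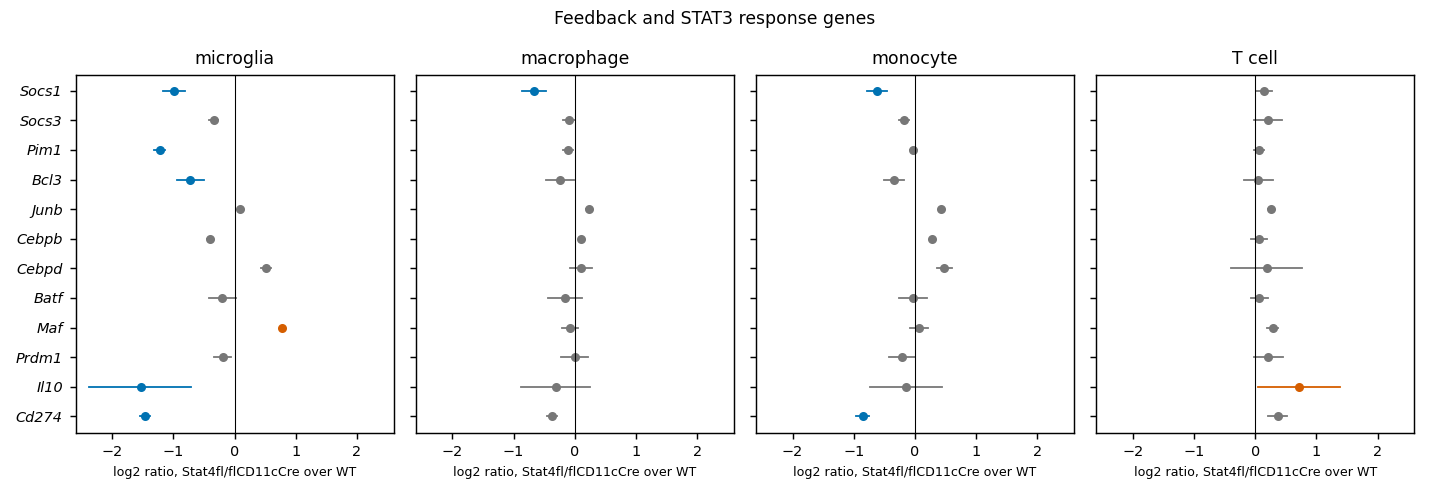
Log2 ratio of CPM, Stat4fl/flCD11cCre over WT (x axis), of 12 feedback and STAT3 response genes (y axis) in 4 cell types, with exact 95% intervals. Blue points are lower and orange points higher by 1.5-fold or more, with 5 blue in microglia, 1 in macrophages, 2 in monocytes and 0 in T cells.

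The genes whose levels followed each member most closely over the 9 cell types were named from 6015 candidates, with both libraries summed and the gene markers of the cell types left out. Pearson's r is over log2(CPM + 1) in 9 points that share libraries and depth, so it is a description only. Nearest to Il6 was Ctsc (r = 0.97, and 0.92 in WT and 0.95 in Stat4fl/flCD11cCre alone), to Osm Ets2 (0.97, 0.95 and 0.94), to Lif Ttc39c (0.97, 0.86 and 0.90) and to Ebi3 Cd80 (0.98, 0.97 and 0.97). Nearest to Il27 were Tlr2 (0.98, 0.97 and 0.92), Hmox1 (0.97, 0.96 and 0.98) and Cd14 (0.97, 0.95 and 0.84). Nearest to Il6ra was Nlrp1b (0.98, 0.98 and 0.97), to Il6st Gmpr2 (0.96, 0.89 and 0.96) and Rgs10 (0.96, 0.95 and 0.95), and to Il27ra Cd28 (0.99, 0.99 and 0.96), Cd247 (0.99, 0.98 and 0.94) and Cd96 (0.98, 0.96 and 0.96). Tlr2 and Cd14 encode receptors for bacterial products on myeloid cells, and Cd28 and Cd247 encode a costimulatory receptor and a signalling chain of the T cell receptor.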

How the data were processed

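For 1 WT and 1 Stat4fl/flCD11cCre library the deposited matrices hold unnormalized UMI counts of each gene in each barcode. Per the file headers, Cell Ranger 7.0.0 wrote them. Also named, per the submitters' processing notes and with no role, are mm10, bcl2fastq, STAR, Seurat and R 4.3.0. The libraries hold 122975017 (WT) and 120221740 (Stat4fl/flCD11cCre) gene UMIs. UMIs of 5 antibody tags, in the same matrices, were not used. Whether intronic reads were counted or doublets removed is not given in the sources used here.

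A cell was given a type by UMIs of at least 2 of its 4 to 8 markers (3 for T cells, neutrophils and Ccr7+ DCs). No doublet caller was used in the main values. Summed UMIs were scaled to CPM, with exact intervals (scipy 1.17.1). Ratios were also computed on simulated Poisson counts, which follow the model that the intervals assume. Those counts hold no clumping of UMIs in a few cells and no spread between libraries, so they cannot check for either. Shares of cells with a UMI of a member were taken after thinning to 2500 UMIs unless said otherwise, and have Clopper-Pearson intervals. Shares with an H2-Aa UMI, and the divisions by H2-Aa and Il17a, were taken without thinning, and those shares have no interval. A count of 0 is given with the limit of 3 counts. No test was run between single libraries. The members, lists, and rules were chosen with earlier results of these data known. All 8 members are named, though not in every cell type, with up to 4 genes of each other list, those with the interval bound farthest from a ratio of 1, and up to 3 genes most like each member. Bcl3, Il10 and Socs3 in microglia, Batf in neutrophils and Socs1 in T cells fall outside that rule and were named after their values were seen. Alternatives were stricter and looser cell filters, leaving out the top 10% of cells by Scrublet score, 1 marker more, cells of several types kept, thinning, centring, and Leiden clusters (scanpy 1.11.5). The κB consensus replaced 1 exact κB sequence after the matches of the latter had been seen. 1 gene of the pathway lists is not reported here.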

Additional observations from a re-analysis of the deposited data

Results flagged for a closer look

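For 3 genes the libraries differed in opposite directions in 2 cell types with intervals on opposite sides of 0; the difference between the cell types was not tested, since there is 1 library per genotype. For Il6 the log2 ratio was 0.38 in microglia and -0.53 in monocytes, a gap of 0.91; the microglia value was -0.02 with Leiden clusters. For Il6ra it was 0.47 in conventional DCs and -0.20 in macrophages, a gap of 0.67; the macrophage value was 0.0038 with cells of several types kept. For Osm it was 0.97 in T cells and -0.43 in microglia, a gap of 1.40; the microglia value was 0.10 with cells of several types kept.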

How the results depend on the processing

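Each of 48 ratios of a member in a cell type or T cell subset was recomputed in 9 other ways, and 391 of the 432 values lay within the interval of the reported one. The count of 7 pairs past 1.5-fold became 12 with 1 marker more in every definition and 13 with each cell thinned to 2500 UMIs, and 7 or 8 otherwise. In 2 cases a called ratio changed sign: Il6ra in plasmacytoid DCs was 0.056 with cells of several types kept, and Il6ra in CD4 T cells without Foxp3 was 0.052 with Leiden clusters. The pathway lists held 21 pairs of gene and cell type past 1.5-fold among 167 measured, and 36 among 202 with a minimum of 10 UMIs. Of all measured genes, 7.23% were higher and 11% lower by that size in microglia, and 1.67% and 3.37% in macrophages. No share of all genes was pooled over these cell types, so the counts are no result about the lists. Over the 9 ways the log2 ratio stayed past 1.5-fold for Il6st (0.81 to 1.05) and Il27 (-1.13 to -0.67) in microglia, Osm in monocytes (0.62 to 0.81) and T cells (0.60 to 1.51) and Lif in T cells (1.196 to 2.13). For Osm in macrophages it did so in 8 of 9 (0.58 to 0.72). Osm in microglia ranged from -0.66 to 0.10, Il6 in microglia from -0.02 to 0.43, and Il6ra in macrophages from -0.25 to 0.0038. Of 28 clusters, 7 held mostly cells of several types, and leaving these out was chosen after seeing the data, as were the divisions by H2-Aa and Il17a. No paired analysis was possible because there is 1 library per genotype. Lif, with 28 and 58 UMIs in T cells, is limited by depth.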
